A study of Mus musculus with 16 samples.

Results

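The regions described here were stretches of chromatin that carried an H3K27me3 peak in both wild type and PCGF5-depleted neural progenitor cells (NPC) but none in wild type embryonic stem (ES) cells. A region was counted when a wild type NPC H3K27me3 peak overlapped no peak of the wild type ES list and overlapped a peak of the PCGF5-depleted NPC list, each by 1 bp or more, so the members were selected on these H3K27me3 calls. Of 11371 wild type NPC H3K27me3 peaks, 3530 (31.0%) met the rule and are called gained peaks below. The other peaks were 4153 that were also absent from wild type ES but had no counterpart in PCGF5-depleted NPC (gained in wild type NPC alone), and 3688 that overlapped a wild type ES peak. Because the rule used the H3K27me3 lists of wild type ES, wild type NPC and PCGF5-depleted NPC, their values are given only as a description. H2AK119ub1, H3K27me3 of PCGF5-depleted ES, Flag-PCGF5, gene position and base composition did not enter the rule.

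The series held 16 mouse ChIP-seq libraries, 1 per group, of which 10 came with a peak list. H2AK119ub1 and H3K27me3 were profiled in wild type and PCGF5-depleted 46C ES cells, a line with a Sox1-GFP reporter grown with LIF and 2i on inactivated feeder fibroblasts, and in the NPC made from them by 6 days of neural differentiation in suspension. Flag-PCGF5 was profiled in ES and in NPC of cells whose genotype the labels give as wild type and whose Pcgf5 gene, by the methods of the study, carried a Flag tag. The PCGF5-depleted cells carry the genotype shPCGF5 in the labels, a short hairpin RNA, and the study made its PCGF5-deficient 46C lines with hairpins. It also describes a knockout and names these profiles as PCGF5-/-. Whether the PCGF5-depleted libraries came from a 46C hairpin line is therefore uncertain. Peak lists hold no expression values, so neither the depletion nor the identity of the cells could be checked against marker genes, and chromatin of feeder cells in the ES libraries was not tested. The lists held between 653 and 14759 peaks, and the read depth behind them is unknown. With 1 library per group no comparison of conditions has a replicate check, and all intervals below (Wilson, 95%) cover counting error and nothing else.

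Polycomb repressive complexes keep developmental genes silent. PRC1 places a single ubiquitin on a lysine of histone H2A (the mark H2AK119ub1) through its RING1 subunits, and each PRC1 holds a PCGF subunit such as PCGF5 or BMI1. PRC2 places H3K27me3 through EZH1 or EZH2, and some PRC2 complexes can bind H2AK119ub1. In ES cells H3K27me3 lies mostly over CpG-rich promoters of developmental genes, and during differentiation it can extend from such sites or appear at genes that are switched off.

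Centres of gained peaks at genes that recur below are shown first, to let the base composition be seen. Each stretch is 300 bp of the plus strand of mm9 (NCBIM37), holds no annotated exon, and has its CpG dinucleotides in capitals. The first 2 lay at genes with no wild type ES peak at the promoter. They were chr11:96055276-96055575, intergenic and 204 bp upstream of Hoxb13, and chr15:102769659-102769958, intergenic and 2621 bp downstream of the Hoxc12 start site. The next, chr8:59822546-59822845, was intergenic and 22916 bp downstream of the Hand2 start site, beyond a gene that had ES peaks. The last, chr15:98530815-98531114, was intergenic, 7660 bp upstream of Ccdc65, and belonged to the gained peak with the highest fold.
Hoxb13: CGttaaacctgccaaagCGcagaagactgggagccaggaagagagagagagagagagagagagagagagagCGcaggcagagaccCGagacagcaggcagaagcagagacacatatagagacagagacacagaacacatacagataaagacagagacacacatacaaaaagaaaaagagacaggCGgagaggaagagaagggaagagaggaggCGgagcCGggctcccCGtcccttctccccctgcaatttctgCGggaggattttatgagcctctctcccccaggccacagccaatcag
Hoxc12: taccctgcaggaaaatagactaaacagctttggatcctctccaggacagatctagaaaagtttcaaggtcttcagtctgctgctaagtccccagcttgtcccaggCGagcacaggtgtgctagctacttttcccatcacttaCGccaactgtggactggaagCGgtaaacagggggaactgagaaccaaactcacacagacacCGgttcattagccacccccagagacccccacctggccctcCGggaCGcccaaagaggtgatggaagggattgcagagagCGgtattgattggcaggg
Hand2: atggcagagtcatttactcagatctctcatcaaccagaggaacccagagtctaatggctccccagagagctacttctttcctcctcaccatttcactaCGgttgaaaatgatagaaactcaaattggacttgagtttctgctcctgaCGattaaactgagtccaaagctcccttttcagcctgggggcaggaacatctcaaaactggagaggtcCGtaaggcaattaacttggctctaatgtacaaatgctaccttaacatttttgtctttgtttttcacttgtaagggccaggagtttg
Ccdc65: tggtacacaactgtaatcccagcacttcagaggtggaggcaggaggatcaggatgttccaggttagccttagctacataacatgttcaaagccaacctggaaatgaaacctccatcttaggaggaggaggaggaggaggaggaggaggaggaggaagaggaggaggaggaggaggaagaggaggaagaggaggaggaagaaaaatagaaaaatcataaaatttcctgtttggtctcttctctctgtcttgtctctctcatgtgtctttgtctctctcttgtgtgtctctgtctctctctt

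The 4 windows held 9 CpG at Hoxb13, 7 at Hoxc12, 3 at Hand2 and none near Ccdc65. Over whole gained peaks, the median ratio of observed to expected CpG was 0.335 and the median GC content was 51.6%. The ratio was 0.575 in peaks that wild type ES also had and 0.292 in those gained in wild type NPC alone. A ratio over 0.6 was found in 17.7% of gained peaks (95% interval 16.5 to 19.0%), beside 27.3% of all wild type NPC peaks and 45.0% of those also in ES. Thus most gained peaks covered sequence poorer in CpG than the peaks that ES cells already had. Simple repeats, taken as fewer than 100 distinct 6-base words of 195 possible in the central 200 bp, made up 5.86% of gained peaks and 8.68% of all peaks.

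The gained peaks covered 2.51 Mb, with a median width of 491.5 bp and a median fold over background of 4.77 (range 1.42 to 14.9). PCGF5-depleted NPC peaks covered 61.7% of these base pairs. The median gained peak was covered by 67.7% of its width (quartiles 45.0 and 90.1%), and 70.3% of gained peaks were covered by 50% or more. Near the edges of the rule, 38 gained peaks lay within 50 bp of a wild type ES peak, the closest at 3 bp, and 96 were overlapped by PCGF5-depleted NPC by 50 bp or less, the least by 1 bp. Just outside it, 51 peaks were left out for an ES overlap of 50 bp or less, and 79 peaks that ES lacked were left out although a PCGF5-depleted NPC peak lay within 50 bp.

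Whether the gain spread from H3K27me3 that ES cells had or appeared elsewhere was read from the gap to the nearest wild type ES peak. The median gap was 2802 bp, beside 26355 bp for peaks gained in wild type NPC alone. Of the 3530 gained peaks, 1080 (30.6%) lay within 1 kb of an ES peak, 982 (27.8%) at over 1 to 5 kb, 624 (17.7%) at over 5 to 50 kb and 843 (23.9%) beyond 50 kb. A single gained peak, on the mitochondrial genome, had no ES peak on its chromosome. Over all wild type NPC peaks, those overlapping ES included, the same classes held 48.0, 15.1, 14.0 and 22.8%. Of the peaks gained in wild type NPC alone, 42.2% lay beyond 50 kb. When the H3K27me3 list of PCGF5-depleted ES was counted as well, fewer gained peaks were far from ES H3K27me3. Then 2704 gained peaks (76.6%) lay within 5 kb of a peak of either ES list, and 491 (13.9%) lay beyond 50 kb from both. When NPC peaks within 1000 bp were joined into domains, 1666 gained peaks (47.2%) stood in a domain that also held a peak found in ES, and 1864 stood in 1341 domains with none. The shares by either ES list and by domain were not computed for the other wild type NPC peaks. Whether gained peaks differed from those in these shares was not tested. All gap and domain values follow from the rule in part, since ES peaks chose the regions.

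Of 1242 gained peaks within 5 kb of an ES peak that sat at a promoter, 608 (49.0%) were downstream of the start site.

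**Figure D1:**
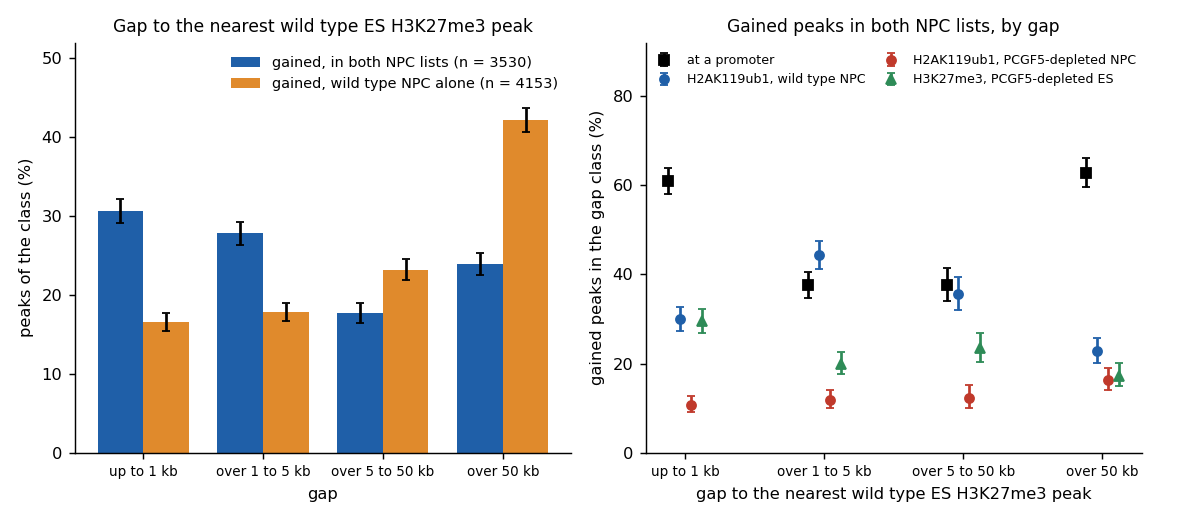
Left, percent of each class of wild type NPC H3K27me3 peaks (y axis) by gap to the nearest wild type ES H3K27me3 peak (x axis), for 3530 gained peaks found in both NPC lists and 4153 gained in wild type NPC alone. Right, percent of the gained peaks in each gap class at a promoter or overlapped by another list. Bars and points are shares and error bars 95% Wilson intervals. Gained peaks within 1 kb made up 30.6% of the class, and promoters were most frequent in the nearest and the farthest gap class (61.0 and 62.9%).

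Promoter peaks, whose centre was 2500 bp or less from where a protein-coding transcript starts, numbered 1794 among the gained peaks (50.8%, 49.2 to 52.5%), beside 54.9% of all wild type NPC peaks and 66.4% of those also in ES. The share was 61.0% within 1 kb of an ES peak and 37.6% at over 1 to 5 kb. It was 37.7% at over 5 to 50 kb and 62.9% beyond 50 kb. Peaks gained in wild type NPC alone had 66.6, 39.7, 39.2 and 49.0% in the same order. Beyond 50 kb the median CpG ratio was 0.492, against 0.321 within 1 kb and 0.268 at over 1 to 5 kb. The gained peaks farthest from ES H3K27me3 were thus more often at promoters and richer in CpG than those a few kilobases away. Of the gained peaks outside promoters, 1160 were intergenic, 425 in introns, 74 in coding exons and 77 in non-coding parts of exons. Of all wild type NPC peaks, 28.7, 12.0, 2.90 and 1.54% fell in these places, beside 32.9% of gained peaks for the intergenic, 12.0% for the intronic and 2.18% for the non-coding exonic ones.

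In all, 1388 of 22232 protein-coding genes (6.24%) had a gained peak within 2500 bp of a start site. At 778 of them wild type ES had an H3K27me3 peak in the same window, which is 3.50% of all genes and 25.9% of the 3003 genes marked in ES. At 610 it had none, which is 2.74% of all genes and 3.17% of the genes not marked there. The list of PCGF5-depleted ES had a peak at 227 of these 610, leaving 383 with no H3K27me3 peak in either ES list. The window was wider for genes with several start sites, and neighbouring genes can share a peak.

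Gained peaks were frequent at patterning and lineage regulators. They lay at 23 of 39 Hox genes, 43 of 82 neural bHLH, POU and homeobox factors, 34 of 66 mesoderm and endoderm regulators and 14 of 29 Wnt ligands and antagonists, beside 6.24% of all genes. None of the 74 ribosomal protein genes had one. With peaks within 1000 bp merged before the rule, which joins gained peaks to neighbours that ES also had, the counts were 3, 6, 9 and 5 genes. Most of these lists were already marked in ES, and among genes marked there the shares with a gained peak were 52.9% for Hox genes (18 of 34), 53.4% for neural factors (39 of 73), 56.0% for mesoderm and endoderm regulators (28 of 50) and 55.0% for Wnt genes (11 of 20), against 25.9% of all genes marked in ES. After the ribosomal genes, the smallest shares were those of germline genes (2 of 32) and Polycomb subunits (3 of 32). Next were collagens (4 of 40) and clustered protocadherins (3 of 24 that the annotation matched). In this order the shares were 6.25, 9.38, 10.0 and 12.5%, and none was below the 6.24% of all genes.

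**Figure D2:**
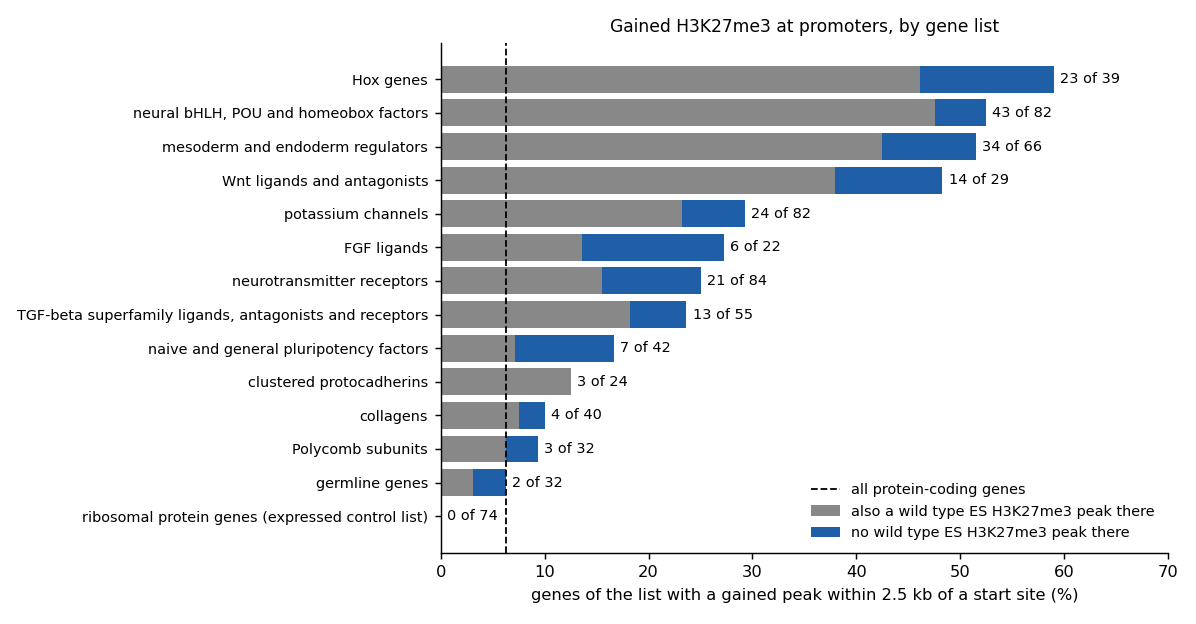
Percent of the genes of each list (x axis) with a gained H3K27me3 peak within 2500 bp of a start site, with the counts beside the bars. Blue is the part with no wild type ES H3K27me3 peak in that window, grey the part with one, and the dashed line is 6.24% of all protein-coding genes. Hox genes led with 23 of 39, and ribosomal protein genes had 0 of 74.

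Some genes used by ES cells themselves had gained peaks. Of 42 pluripotency factors 7 had one (16.7%, 8.32 to 30.6%), beside 6.24% of all genes, and at 4 of these, Tbx3, Prdm14, Klf2 and Klf4, no ES list of H3K27me3 or H2AK119ub1 had a peak. Tbx3 encodes a T-box factor of naive ES cells that is also used in organ patterning. In its window of 10351 bp, wild type NPC had 8745 bp of H3K27me3 and PCGF5-depleted NPC 5662 bp, and H2AK119ub1 covered 5720 bp and 2480 bp. Prdm14, a regulator of naive pluripotency and germ cells, had 2614 bp of H3K27me3 in wild type NPC against 768 bp in PCGF5-depleted NPC. The coverage in PCGF5-depleted NPC was small at Klf2, a Krüppel-like factor, with 181 bp beside 1899 bp in wild type. Klf4 had 925 bp beside 2156 bp. Klf2 thus met the rule by the 1-bp overlap although little of its peak was shared. H2AK119ub1 in wild type and PCGF5-depleted NPC covered 896 and 366 bp at Prdm14. It covered 172 and 222 bp at Klf2, and 258 and 0 bp at Klf4, in the same order. With 50% coverage required, 4 of the 42 had a gained peak. Over the whole list, 21 of 42 genes had wild type NPC H3K27me3, 9 had it in PCGF5-depleted NPC and 5 in wild type ES.

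Regulators of other lineages had gained peaks both at new and at marked promoters. Tbx20, a T-box factor of the heart, had no wild type ES peak, 211 bp of H3K27me3 in PCGF5-depleted ES, 3542 bp in wild type NPC against 2845 bp in PCGF5-depleted NPC. Cdx1, Tead4, Snai1, Cdx4 and Foxa3 were the other 5 of this list without a wild type ES peak, and 3 of these 6 genes had a peak in PCGF5-depleted ES. Hand2, a bHLH factor of heart and limb, had 410 bp in wild type ES, 823 bp in PCGF5-depleted ES, 4153 bp in wild type NPC against 2898 bp in PCGF5-depleted NPC. Tal1, a bHLH factor of blood, had 1553 bp in wild type ES and 6824 bp in wild type NPC, and 1179 and 4772 bp in the PCGF5-depleted cells. At Gsc, a homeobox gene of the organizer, wild type ES had 1180 bp and PCGF5-depleted ES none, while wild type and PCGF5-depleted NPC had 4483 and 4092 bp. H2AK119ub1 at Gsc covered 1401 bp in wild type NPC and more, 1935 bp, in PCGF5-depleted NPC.

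Among neural factors 39 of the 43 genes with a gained peak were marked in wild type ES. Pax6, which patterns the eye and forebrain, had 4350 bp of H3K27me3 in wild type ES, 5035 bp in PCGF5-depleted ES, 17888 bp in wild type NPC against 13796 bp in PCGF5-depleted NPC. Gained peaks accounted for 4123 bp of the wild type NPC value, since peaks that touched an ES peak were not counted as gained. Lhx9, a LIM homeobox gene, had 829, 657, 7040 and 5583 bp in the same order. Zic4, a zinc-finger gene of the cerebellum, had the most gained base pairs of any gene marked in ES (7365 bp in 10 peaks). Neurod1, a bHLH factor of neurons, had 4437 bp in wild type NPC but 1074 bp in PCGF5-depleted NPC.

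Signalling genes followed the same split. Bmp4, a ligand that opposes neural fate, had no H3K27me3 in either ES list, 2202 bp in wild type NPC against 1468 bp in PCGF5-depleted NPC, with 380 bp of H2AK119ub1 in wild type NPC and none in PCGF5-depleted NPC. Of 55 TGF-β superfamily genes 13 had a gained peak (23.6%), beside 6.24% of all genes, and 10 of the 13 had a wild type ES peak in the window. Tgfb2 and Gdf11 were, with Bmp4, the 3 without a wild type ES peak, and 2 of these 3 had one in PCGF5-depleted ES. Wnt3a, Wnt5a and Wnt7a had ES peaks of 1038, 1567 and 1040 bp in wild type ES and peaks of 4331, 4468 and 3499 bp in wild type NPC. Of 22 FGF ligands 6 had a gained peak, and at Fgf16 only 216 bp of PCGF5-depleted NPC H3K27me3 stood beside 2375 bp of wild type. Potassium channels (24 of 82) and neurotransmitter receptors (21 of 84), used by mature neurons, had gained peaks too. Of the 24 channel and 21 receptor genes with a gained peak, 7 and 9 had a wild type NPC H2AK119ub1 peak in the window. Beside them stood 587 of the 1388 genes with a gained peak (42.3%), all 23 of the Hox genes and 40 of the 43 neural factors. In PCGF5-depleted NPC the channels and receptors with such a peak were 7 and 3. There it was called at 430 of the 1388 genes (31.0%), 21 of the 23 Hox genes and 36 of the 43 neural factors. Grm7, a glutamate receptor gene, had 2440 bp of gained H3K27me3, no H2AK119ub1 in any of the 4 lists and 373 bp of H3K27me3 in PCGF5-depleted NPC. Among Polycomb genes Bmi1, itself a PCGF subunit, had no wild type ES peak, 2730 bp in wild type NPC against 2997 bp in PCGF5-depleted NPC, and its 1929 bp of H2AK119ub1 in wild type NPC had no counterpart in PCGF5-depleted NPC.

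The mark of PRC1 was read from the 4 H2AK119ub1 lists, which the rule did not use. In wild type NPC, H2AK119ub1 overlapped 1172 gained peaks (33.2%, 31.7 to 34.8%), beside 25.5% of all wild type NPC H3K27me3 peaks. It overlapped 34.4% of peaks also in ES and 11.1% of those gained in wild type NPC alone. In PCGF5-depleted NPC the share of gained peaks was 12.7% (11.6 to 13.8%), beside 15.6% of all peaks. The share was thus above that of all peaks in wild type NPC and below it in PCGF5-depleted NPC. By base pairs, H2AK119ub1 covered 23.1% of the gained sequence in wild type NPC and 5.10% in PCGF5-depleted NPC. The wild type NPC list was longer, with 5754 against 3845 peaks, and when the longer list was cut to its 3845 best-scoring peaks, a comparison added after the list lengths were seen, the shares were 25.0 and 12.7%.

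Peak by peak, 272 gained peaks (7.71%) had H2AK119ub1 in both NPC, 900 (25.5%) in wild type NPC alone, 176 (4.99%) in PCGF5-depleted NPC alone and 2182 (61.8%) in neither. Over all wild type NPC peaks these shares were 9.45, 16.0, 6.11 and 68.4%. Of the peaks also in ES, 21.3% had H2AK119ub1 in both NPC and 13.1% had it in wild type NPC alone. Gained H3K27me3 that was present in PCGF5-depleted NPC mostly lay where no H2AK119ub1 peak was called in those cells. This held for wild type NPC H3K27me3 peaks in general, since that list overlapped 12.7% of gained peaks and 15.6% of all peaks. Whether signal too weak to be called was present there cannot be read from peak lists.

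**Figure D3:**
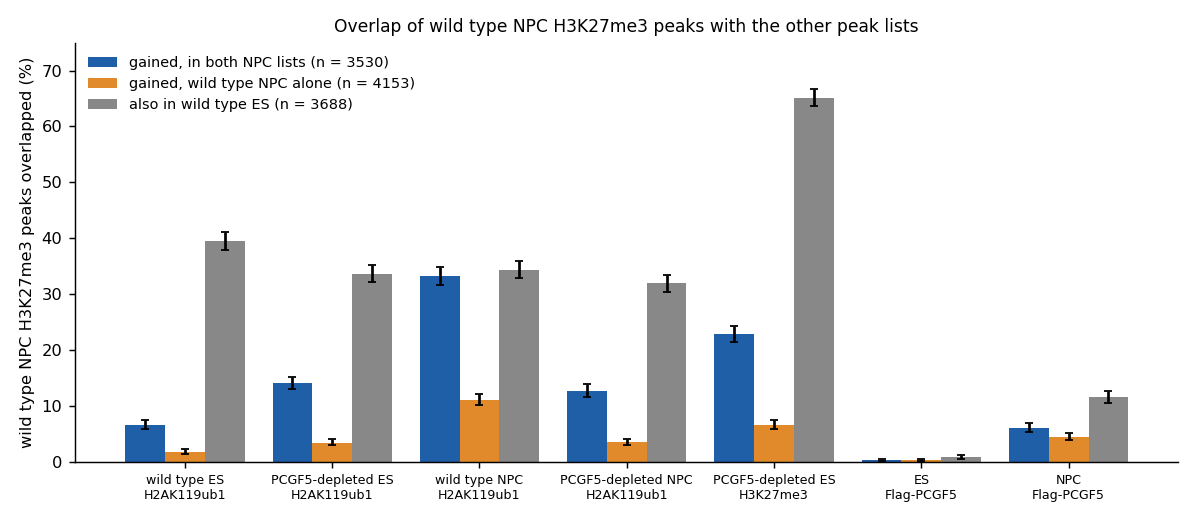
Percent of wild type NPC H3K27me3 peaks (y axis) overlapped by 1 bp or more by each other list (x axis), for the 3 classes of peaks. Bars are shares and error bars 95% Wilson intervals. Gained peaks found in both NPC lists were overlapped by H2AK119ub1 in 33.2% of cases in wild type NPC and 12.7% in PCGF5-depleted NPC, and in 6.66 and 14.1% in wild type and PCGF5-depleted ES.

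Wider peaks can overlap more by their length alone, and gained peaks were wider than those gained in wild type NPC alone, with medians of 491.5 and 303 bp. Within peaks under 300 bp, wild type NPC H2AK119ub1 overlapped 17.9% of gained peaks, 8.70% of those gained in wild type NPC alone and 5.16% of those also in ES. At 600 to under 1200 bp the shares were 40.7, 17.0 and 20.3%. At 300 to under 600 bp they were 26.3, 11.4 and 10.2%. Neighbouring peaks are not independent, and no test was made between the classes. At 1200 bp or more, gained peaks and peaks also in ES had 61.0 and 59.5%. For PCGF5-depleted NPC H2AK119ub1 the order was different, with 8.16% of gained peaks and 13.8% of those also in ES under 300 bp, and 28.6 and 51.0% at 1200 bp or more.

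**Figure D4:**
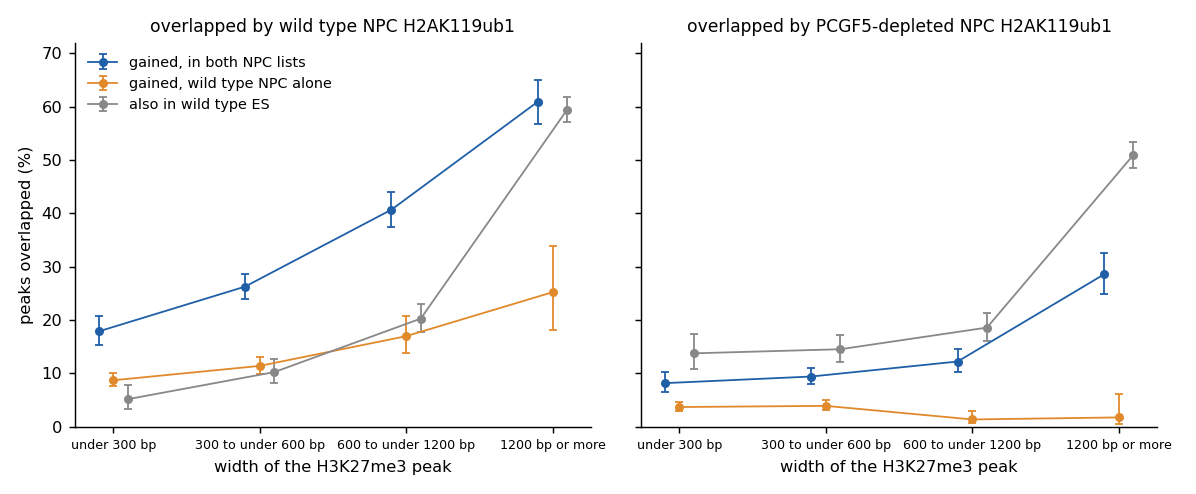
Percent of H3K27me3 peaks (y axis) overlapped by H2AK119ub1 of wild type NPC (left) and PCGF5-depleted NPC (right) by width of the peak (x axis), for the 3 classes. Points are shares and error bars 95% Wilson intervals. In wild type NPC gained peaks led in each of the 3 narrower classes (17.9, 26.3 and 40.7%), while in PCGF5-depleted NPC peaks also in ES led in each class.

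H2AK119ub1 in wild type NPC was more frequent away from start sites. It overlapped 42.8% of gained peaks outside promoters and 23.9% of those at promoters, with median widths of 491 and 492.5 bp. Peaks gained in wild type NPC alone (15.7 and 6.06%) and peaks also in ES (40.9 and 31.1%) had the same order. By gap the share was 29.9% within 1 kb of an ES peak, 44.3% at over 1 to 5 kb, 35.6% at over 5 to 50 kb and 22.8% beyond 50 kb. In PCGF5-depleted NPC the same classes had 10.7, 11.9, 12.3 and 16.4%. The shares of both NPC lists were thus closest beyond 50 kb. That class held 35 peaks of a repeat array described below, all of them overlapped by H2AK119ub1 in PCGF5-depleted NPC and 17 in wild type NPC. Without the array the shares beyond 50 kb were 21.7 and 12.7%.

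Before differentiation few of these sites carried H2AK119ub1. The wild type ES list overlapped 6.66% of gained peaks (5.88 to 7.53%), beside 15.5% of all wild type NPC peaks, and the PCGF5-depleted ES list 14.1% (12.9 to 15.2%), beside 16.5%. The order of the genotypes was the reverse of that in NPC. Absence of H3K27me3 in wild type ES, but not in PCGF5-depleted ES, was part of the rule. When absence from PCGF5-depleted ES was required as well, the shares were 4.77% in wild type and 11.3% in PCGF5-depleted ES. With the mirror rule, PCGF5-depleted NPC peaks absent from PCGF5-depleted ES and shared with wild type NPC, the shares were 11.9% in wild type ES and 15.4% in PCGF5-depleted ES. Among peaks also in wild type ES the order was 39.5% in wild type and 33.6% in PCGF5-depleted ES. H3K27me3 of PCGF5-depleted ES overlapped 22.9% of gained peaks (21.5 to 24.3%), beside 30.6% of all peaks and 6.60% of those gained in wild type NPC alone. Of all gained peaks, 1963 (55.6%) had no H2AK119ub1 in any of the 4 lists, beside 60.4% of all peaks.

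Flag-PCGF5 was called over few wild type NPC H3K27me3 peaks, gained or not. In NPC it overlapped 214 of them (6.06%, 5.32 to 6.90%), beside 7.24% of all wild type NPC H3K27me3 peaks. It overlapped 4.41% of peaks gained in wild type NPC alone and 11.6% of those also in ES. In ES, Flag-PCGF5 overlapped 10 gained peaks (0.283%), beside 0.466% of all peaks. The Flag lists held 12013 peaks in NPC and 653 in ES. At genes, 315 of the 1388 with a gained peak (22.7%) had NPC Flag-PCGF5 in the promoter window, beside 14.1% of all protein-coding genes. Of all these genes 15.9% had wild type NPC H3K27me3 in the window, and the Flag-PCGF5 share among those was not computed. The gene shares thus have another reference than the peak shares and cannot be set against them.

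Gained peaks joined within 10 kb formed 1938 blocks, 1247 of a single peak, and 113 blocks of 5 or more peaks held 863 gained peaks (24.4%). Blocks were not counted for the other wild type NPC H3K27me3 peaks, so whether gained peaks were more grouped than those was not tested. Of the 20 blocks with most gained base pairs, 6 held start sites of Hox genes, which specify position along the body axis. In 18 of these 20 blocks, base pairs of H2AK119ub1 were fewer in PCGF5-depleted than in wild type NPC. Their median over the 20 blocks was 13.3% of wild type. The exceptions were the repeat array on chromosome 9 and the block at Ddn, with 440 bp in PCGF5-depleted and 142 bp in wild type NPC. Base pairs of H3K27me3 had a median of 73.7% of wild type (range 25.5 to 149.6%). The rule required H3K27me3 in both NPC, so the medians of the marks cannot be set against each other. Over the whole lists, PCGF5-depleted and wild type NPC had 1.12 and 2.33 Mb of H2AK119ub1, and 8.18 and 9.67 Mb of H3K27me3.

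The largest block, chr15:102739175-102800368, spanned the 5′ end of the HoxC cluster from Hoxc13 to Hoxc10. It held 21 gained peaks with 38249 bp. H3K27me3 covered 1089 bp of it in wild type ES, 1993 bp in PCGF5-depleted ES, 51618 bp in wild type NPC against 43256 bp in PCGF5-depleted NPC. H2AK119ub1 covered 1139, 3446, 42603 and 5083 bp in the same order. Hoxc12, shown above, had 4844 bp of H3K27me3 in wild type NPC against 4562 bp in PCGF5-depleted NPC, and 4046 and 1338 bp of H2AK119ub1. The Hoxb13 block, chr11:96030343-96067857, held 16 gained peaks, with H2AK119ub1 over 21414 bp in wild type NPC against 2612 bp in PCGF5-depleted NPC. The block with the least H3K27me3 in PCGF5-depleted NPC relative to wild type was that of Hoxb9, with 4327 and 16991 bp.

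The Tbx3 block had no histone mark in any ES list. At chr5:120105713-120139854 it held 13 gained peaks with 27049 bp, 77842 bp from the nearest wild type ES H3K27me3 peak. All 4 ES lists had 0 bp there. H3K27me3 covered 28583 bp in wild type NPC against 18029 bp in PCGF5-depleted NPC, and H2AK119ub1 22150 bp and 3514 bp. By contrast the Hand2 block, chr8:59791032-59828540, had H3K27me3 over 1764 bp in wild type ES and 3010 bp in PCGF5-depleted ES, and over 29145 bp in wild type NPC against 17114 bp in PCGF5-depleted NPC. H2AK119ub1 covered 1641 and 4537 bp in wild type and PCGF5-depleted ES, and 21766 and 1842 bp in the NPC.

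**Figure D5:**
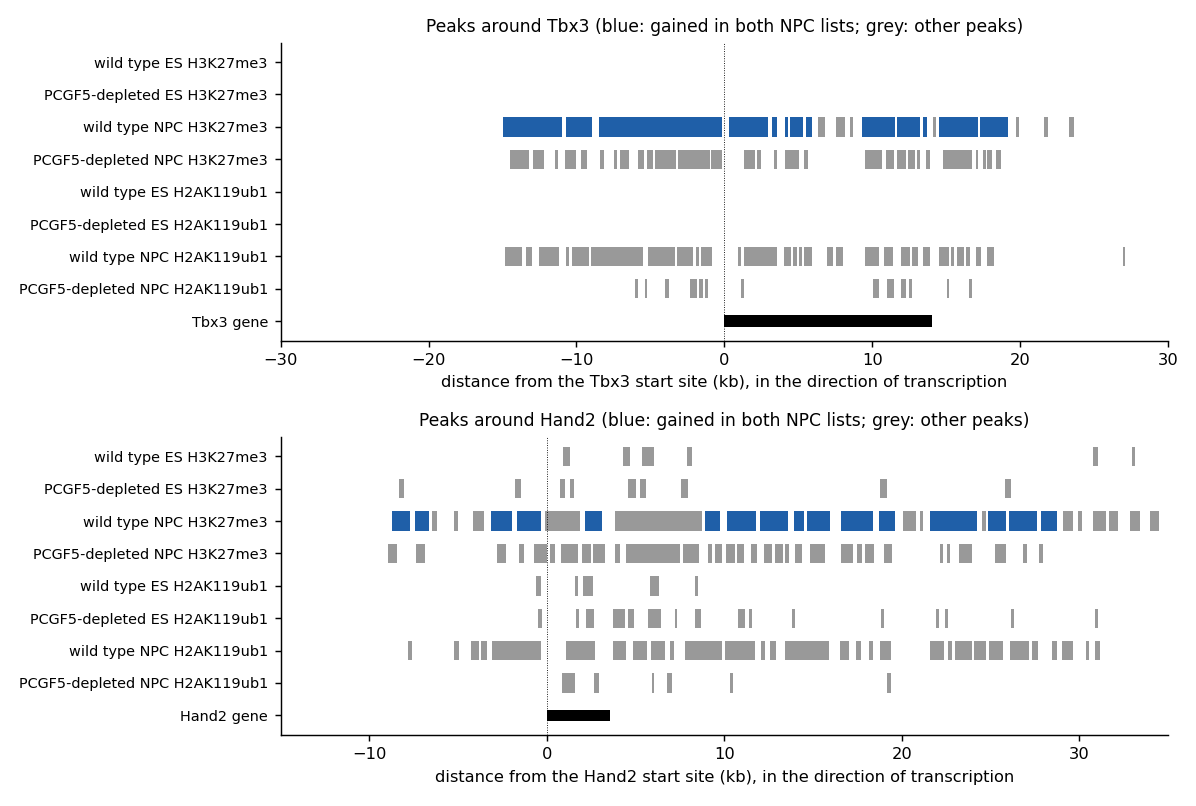
Peaks of the 8 histone lists (rows) around Tbx3 and Hand2, by distance from the start site in kb (x axis). Blue bars are gained peaks found in both NPC lists, grey bars all other peaks, and the black bar is the gene. Around Tbx3 the 4 ES rows are empty over the block of 13 gained peaks, while around Hand2 small ES peaks lie among 16 gained ones.

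The second block by gained base pairs was a repeat array. At chr9:2999983-3038315 it held 35 gained peaks (1.21% of the gained base pairs) with a median fold of 2.21, less than the 4.77 of all gained peaks. It contained 12 predicted genes, of which 5 were among the 15 genes with most gained base pairs and no ES peak. H2AK119ub1 covered 27994 bp in PCGF5-depleted NPC and 4087 bp in wild type NPC, the reverse of 18 of the 20 blocks. Reads in such arrays map to many places, and the part of mapping in these values was not tested. Without these 35 peaks and the mitochondrial one, 3494 gained peaks remained, of which 33.1% had H2AK119ub1 in wild type NPC and 11.8% in PCGF5-depleted NPC.

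The single peaks with the highest fold were also read for low-complexity sequence. The peak with the highest fold (14.9), chr15:98530537-98531392 near Ccdc65, had 123 of 195 possible 6-base words in its centre, and PCGF5-depleted NPC covered 474 of its 856 bp. The next, at 14.4-fold in a Hoxc4 intron (chr15:102861600-102862644), had 45. Of the 10 peaks with the highest fold it alone fell below 100. The peak near Hand2 shown above (13.7-fold) had 190 and was overlapped by H2AK119ub1 over 2113 bp in wild type NPC against 0 bp in PCGF5-depleted NPC. Among gained peaks above the median fold, the 5 farthest from any wild type ES peak lay on the X chromosome (3 peaks, 3472813 to 5890014 bp away) and at Lrfn5 on chromosome 12, a gene of a synaptic adhesion protein. At Lrfn5 a peak of 1897 bp, 99 bp from the start site, had 884 bp of H2AK119ub1 in wild type NPC against 0 bp in PCGF5-depleted NPC.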

How the data were processed

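ChIP-seq peak lists of 10 libraries were used, 8 of histone marks and 2 of Flag-PCGF5. The 6 input libraries were not used here. For histone marks chromatin was digested with micrococcal nuclease and lightly fixed, whereas Flag chromatin was crosslinked, then sheared by sonication. The authors used Trimmomatic for trimming, Bowtie2 for alignment to mm9, Picard against duplicates and MACS2 2.1.0 for peaks of each single library, without pooling. A Drosophila spike-in used by the authors does not enter the lists. Each deposited list gives a score, a fold (the ratio of signal over background), −log10 p-values and −log10 q-values and the summit offset as the caller wrote them. These values rank peaks within a library and were not compared between libraries, since depth is unknown and the length of a list moves with depth and background.

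Overlaps of 1 bp or more and gaps were computed in Python 3.11.15 with pandas 2.3.3 and numpy 2.4.6. They were tested on simulated peaks and checked against bedtools 2.31.1, and 0 of 90 pairs of lists differed. No peak ran beyond the chromosome ends of NCBIM37, and genes came from GENCODE M1 (22232 protein-coding names). Coordinates count from 1. Promoter windows were 2500 bp around start sites. Shares carry 95% Wilson intervals. Peaks are not replicates, so no test was made between conditions. Gene lists (14) and the regions themselves were chosen with earlier results of these data known. Genes were named by base pairs of gained peaks: up to 5 per list, the 15 with most among those without and the 10 with most among those with a wild type ES peak, the 10 with most among genes whose gained peak had H2AK119ub1 of both NPC, plus genes nearest to the 10 peaks of highest fold and the 5 farthest from ES peaks. Genes of a list named only to complete a count fall outside this rule. Some withheld items are not reported here.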

Additional observations from a re-analysis of the deposited data

Results flagged for a closer look

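The share of gained peaks with H2AK119ub1 moved in opposite directions in ES and NPC between the genotypes. In ES the share in PCGF5-depleted cells minus that in wild type was 7.394 percentage points, and in NPC it was -20.51 points. Opposite directions were not particular to gained peaks. Over all wild type NPC peaks, wild type and PCGF5-depleted cells had 15.5 and 16.5% in ES, and 25.5 and 15.6% in NPC. Peaks gained in wild type NPC alone had 1.76 and 3.42% in ES, and 11.1 and 3.47% in NPC. For peaks also in wild type ES the PCGF5-depleted share was the smaller in both (39.5 and 33.6%, 34.4 and 31.9%). No test of that difference was made, since each group had 1 library. The rule required absence of H3K27me3 in wild type ES and not in PCGF5-depleted ES. With absence from both required the ES shares were 4.77 and 11.3%, and with the mirror rule 11.9 and 15.4%, in wild type and PCGF5-depleted ES. In the 9 alternatives that gave all 4 shares, wild type NPC had the larger share of the NPC lists in 9 and PCGF5-depleted ES the larger share of the ES lists in 9.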

How the results depend on the processing

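No paired analysis was possible because each group had 1 library, and for the same reason no replicate could be left out. Values below are shares of gained peaks unless stated. When 50% or more of a peak had to be covered, 60.8% lay within 5 kb and 22.1% beyond 50 kb of wild type ES H3K27me3, the H2AK119ub1 shares were 18.7% (wild type NPC), 5.52% (PCGF5-depleted NPC), 1.49% (wild type ES) and 5.04% (PCGF5-depleted ES), that of PCGF5-depleted ES H3K27me3 was 9.11%, and 39.9% of genes had no wild type ES peak. With the higher-scoring 50% of every list there were 1722 gained peaks and 787 genes (56.4% without a wild type ES peak), the gap shares were 45.5 and 32.5%, and the 4 H2AK119ub1 shares in the same order were 36.4, 16.0, 7.72 and 15.6%. With peaks within 1000 bp merged there were 1344 gained peaks, 53.1% at promoters, and 768 genes (77.7%), the gap shares were 28.4 and 46.4%, the H2AK119ub1 shares 25.7, 14.6, 5.43 and 12.1%, and that of PCGF5-depleted ES H3K27me3 28.6%. Merging joins gained peaks to ES-marked neighbours, so the gap shares depend on how finely domains were called. Without peaks within 1000 bp of a wild type ES peak, promoters made up 46.3%, the gap shares were 40.1 and 34.4%, wild type and PCGF5-depleted ES H2AK119ub1 had 4.45 and 12.0%, PCGF5-depleted ES H3K27me3 had 19.9%, and 900 genes remained (66.9%). With absence from PCGF5-depleted ES as well, 25.6% lay beyond 50 kb and the H2AK119ub1 shares were 11.5% (PCGF5-depleted NPC), 4.77% (wild type ES) and 11.3% (PCGF5-depleted ES). A promoter window of 1000 bp gave 27.3% at promoters and 60.1% of genes without a wild type ES peak. By base pairs the H2AK119ub1 shares were 23.1, 5.10, 2.14 and 5.75%, and that of PCGF5-depleted ES H3K27me3 was 9.91%. In alternatives added after seeing the data, lists of equal length gave 25.0% (wild type NPC) and 5.52% (wild type ES), and the mirror rule 11.9% (wild type ES) and 15.4% (PCGF5-depleted ES). Leaving out the chromosome 9 array and the mitochondrial peak kept 11 of 11 main values within their interval or 1.5 times. Of the 14 gene lists, the count stayed within 1.5 times in 4 with merged peaks, in 6 without peaks within 1000 bp of wild type ES, in 7 each with the higher-scoring 50% and the 1000-bp window, and in 11 with 50% coverage, where pluripotency factors had 4 genes in place of 7. Of 73 named genes, between 37 (merged peaks) and 68 (without the array) had a gained peak under an alternative. The causes of these shifts were not tested, and peaks under the calling threshold at this unknown depth cannot be told from absent marks.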
